A study of Mus musculus with 2 samples.

Results

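The unfolded protein response and the integrated stress response are described here through 32 mouse genes, chosen as a list of symbols. All 32 were found among the 31053 features of the count matrices. By role, 5 were sensors or transcription factors, 9 were chaperones or folding enzymes of the endoplasmic reticulum (ER), 10 were other targets of ATF6 or XBP1, and 8 were targets of ATF4. The cells came from the tumour region of the liver of C57BL/6 mice aged 17 months, which had been fed a diet named CD-HFD for 15 months. An inhibitor of FABP5, a cytosolic carrier of fatty acids, was given from month 13 in the inhibitor group. There was 1 single-cell library from control mice and 1 from inhibitor-treated mice. How many mice each library came from, and what the control mice received, are not given in the sources used here. Both preparations were digested with collagenase and enriched with an Annexin V kit for live cells. Which fraction was sequenced is not stated.

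Proteins that fail to fold in the ER are sensed by 3 membrane proteins, ATF6, IRE1 (encoded by Ern1) and PERK (encoded by Eif2ak3). ATF6 is cleaved to a transcription factor, IRE1 splices Xbp1 mRNA so that it codes for an active transcription factor, and both factors raise chaperones and the machinery that removes misfolded proteins. PERK and related kinases phosphorylate a translation initiation factor, which lowers protein synthesis and favours translation of ATF4, an activator of amino acid synthesis and stress genes; this common arm is the integrated stress response. Cells that secrete much protein, such as plasma cells and hepatocytes, use these pathways at rest. Cleavage, splicing and phosphorylation leave no trace in the counts of mRNA per gene used here, so only the mRNA level of each gene is reported.

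Promoter sequence is shown before the values, because the members are grouped by the factor known to act on them. RefSeq promoters on GRCm38.p6, from 250 bases before to 50 after the start of each gene, were matched for 29 of the 32 members, with none for Atf6, Hyou1 and Manf. On either strand they were searched for the ER stress response element, CCAAT, 9 bases of any kind and CCACG, which is bound by ATF6 together with the factor NF-Y. The element was present in 9 of the 29 members and in 37 of the 27025 genes of the table (0.137%). The members with it were 5 of 8 chaperones or folding enzymes and 4 of 9 other ATF6 or XBP1 targets, and no ATF4 target of 8 had it. Each match is printed below in the orientation of the element, with its 2 ends in capitals, its strand and its distance from the gene's start, counted to the middle of the element.
Hspa5, chr2:34772020-34772048, plus strand, 56 bases before the start: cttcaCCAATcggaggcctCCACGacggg
Hsp90b1, chr10:86705633-86705661, minus strand, 203 bases before: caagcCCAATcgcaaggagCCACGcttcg
Hsp90b1, chr10:86705528-86705556, plus strand, 98 bases before: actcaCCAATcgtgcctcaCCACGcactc
Calr, chr8:84847070-84847098, plus strand, 153 bases before: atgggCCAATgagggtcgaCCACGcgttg
Canx, chr11:50325795-50325823, minus strand, 136 bases before: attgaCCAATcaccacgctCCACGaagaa
Pdia6, chr12:17266486-17266514, plus strand, 89 bases before: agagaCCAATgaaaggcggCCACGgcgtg
Dnajc3, chr14:118937822-118937850, plus strand, 96 bases before: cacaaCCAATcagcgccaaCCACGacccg
Creld2, chr15:88819515-88819543, minus strand, 117 bases before: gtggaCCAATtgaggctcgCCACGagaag
Syvn1, chr19:6046527-6046555, plus strand, 35 bases before: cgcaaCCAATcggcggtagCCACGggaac
Derl3, chr10:75893237-75893265, minus strand, 147 bases before: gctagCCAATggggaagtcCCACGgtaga

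The amino acid response element core, TGATG, 1 base of any kind and AA, is part of sites bound by ATF4. It was present in 3 of 8 ATF4 targets, in Herpud1 among the ATF6 or XBP1 targets, and in 1219 of the 27025 genes (4.51%). Of 29 related ATF4 genes with a promoter, 12 held it. The core of the UPR element, TGACGTGG, was found in none of the 29 members and in 193 genes (0.714%). It was present in 4 of 26 related ATF6 or XBP1 genes, namely Sec24d, Txndc5, Txndc11 and Kdelr3. In the matches to the ATF4 motif, capitals mark its fixed bases.
Atf3, chr1:191183426-191183453, plus strand, 106 bases before the start: gcggacttggTGATGcAAgtgcgagaag
Trib3, chr2:152344029-152344056, plus strand, 18 bases past the start: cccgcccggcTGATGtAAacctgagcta
Asns, chr6:7693215-7693242, minus strand, 19 bases before: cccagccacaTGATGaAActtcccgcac
Herpud1, chr8:94386307-94386334, minus strand, 108 bases before: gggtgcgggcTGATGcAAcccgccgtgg

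In the GENCODE M21 annotation the windows of Hspa5 and Asns lay in an exon of the same gene, that of Trib3 overlapped the edge of an exon of Trib3 with the motif itself outside it, that of Atf3 in an intron of Atf3, that of Herpud1 in an intron of Gm15890, and the others between genes. A match describes the letters only and is not evidence of binding in these cells.

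**Figure D1:**
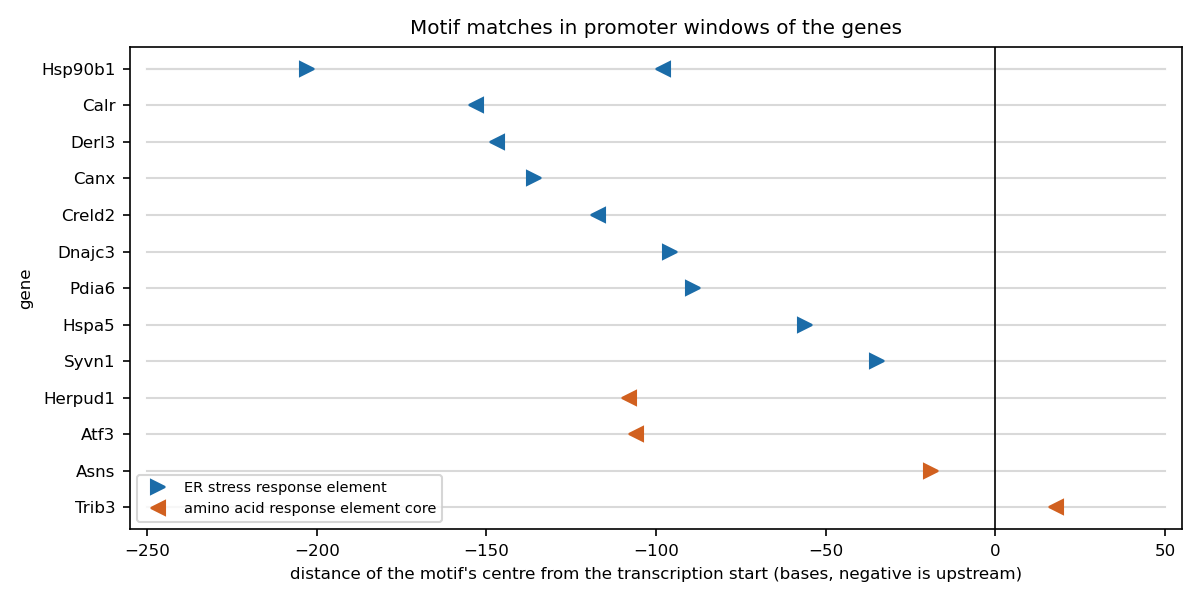
Position of each motif match in the members' RefSeq promoters, as bases from the gene's start to the middle of the motif, with the gene names on the vertical axis and triangles pointing right for the gene's own strand and left for the opposite strand. All 10 matches to the ER stress response element lie between 203 and 35 bases before the start.

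The control library held 9493 barcodes and 53378693 unique molecular identifiers (UMIs, each a captured mRNA molecule), and the inhibitor library 10649 barcodes and 68074929 UMIs. After filtering, 6461 and 8753 cells were kept, with a median of 3965 and 6296 UMIs per cell, and the members held 117775 and 211384 of their UMIs. The libraries shared 29 barcode sequences. Cells fell into 25 clusters and 13 classes, named only from marker genes, so that each class name below means cells like that type. All 7 Kupffer markers, all 17 monocyte or macrophage markers and all 8 neutrophil markers had UMIs in their class in both libraries, whereas only 4 of 7 tumour epithelial markers did in the inhibitor hepatocyte or tumour epithelial class. Of the 32 members, 1 was among the variable genes that set the clusters.

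Levels are given as CPM, a member's UMIs per 1000000 UMIs of its class in a library. The factor Xbp1, needed for plasma cell secretion, stood at 1114 CPM (exact Poisson 95% interval 1052 to 1179) in the 43 control plasma cells and at 1236 (1115 to 1367) in the 16 inhibitor plasma cells. The next control class, plasmacytoid dendritic cells, had 349 CPM, so the plasma cell level was 3.19-fold above it with intervals that did not overlap. Intervals in this text cover counting error only.

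Among classes of 20 or more cells, the control plasma cells had the highest level of 15 of the 32 members. Among them was Derl3, a factor of ER protein removal, with 183 CPM against 20.3 in the next class. Asns, which makes asparagine, stood at 71.6 CPM there and at 23.0 in the next class, hepatocyte or tumour epithelial cells. Inhibitor plasma cells were too few for this ranking, and in that library plasmacytoid dendritic cells were highest for 9 members, Kupffer cells for 6 and neutrophils for 5. How often each class was highest over all genes was not counted in either library, so these counts have no background share. Plasma cells also differed between libraries, with Hspa5, the main ER chaperone BiP, at 527 and 1708 CPM and its partner Hsp90b1 at 1206 and 3559. Immunoglobulin genes made up 63.8% of control and 52.7% of inhibitor plasma cell UMIs. Relative to the remaining UMIs, on the same scale as CPM, Hspa5 stood at 1456 and 3614, Hsp90b1 at 3331 and 7530, and Xbp1 at 3077 and 2616. With 43 and 16 cells this class was not compared further.

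Kupffer cells are the resident macrophages of the liver. Among classes of 20 or more cells they had the highest CPM of Calr, Canx and Pdia3, which fold glycoproteins in the ER. The 16 inhibitor plasma cells, outside this ranking, held 417 Calr UMIs of 307348, a higher level than in inhibitor Kupffer cells. Relative to UMIs outside immunoglobulin genes, control plasma cells stood at 1400 for Calr, 185 for Canx and 429 for Pdia3. The Kupffer CPM were 688, 354 and 416 in that library. Canx stood at 354 CPM in control and 341 in inhibitor Kupffer cells, 2.01-fold and 2.36-fold above the next class. Both libraries thus gave Canx the same order, with intervals apart.

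ATF4 targets followed a different order, but not a common one. Phgdh, given below, and Psat1 were lowest in neutrophils, Psat1 at 0.601 CPM in control and 1.08 in inhibitor cells. Neutrophils were highest in both libraries for Atf3, a stress-induced transcription factor, at 868 CPM (824 to 914) in control and 825 (767 to 885) in inhibitor cells. Ppp1r15a, whose product ends the translation block, stood at 666 and 862 CPM in neutrophils. Sesn2, a sestrin that restrains growth signalling, stood at 74.5 and 77.6 CPM. Each of these was above the next class with intervals apart. Immediate early genes, which are induced by handling of tissue, held 3.70% of control and 3.53% of inhibitor neutrophil UMIs. In the other classes they held 0.134% to 0.957%, and their part in these levels was not tested. Ddit3, encoding the factor CHOP, was close to the next class in the control library, at 150 CPM in neutrophils and 134 in hepatocyte or tumour epithelial cells. After cells were thinned to 1000 UMIs, which left out 10 control and 25 inhibitor neutrophils and 67 and 45 T cells as shallower, Atf3 had a UMI in 44.8% of control and 44.1% of inhibitor neutrophils, and in 0.459% and 0.979% of T cells. Unthinned, the neutrophil shares were 58.4% and 54.5%, at medians of 1962.5 and 1639 UMIs per cell. The T cell medians were 3598 and 3715.5 UMIs, and the unthinned T cell shares were 1.58% and 2.93%.

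The serine synthesis enzyme Phgdh showed the opposite distribution. It had 0 UMIs in neutrophils of both libraries, against 73.3 and 72.8 CPM in T cells. A count of 3 UMIs, the value entered for 0 in ratios, would be 1.8 CPM in control and 3.23 in inhibitor neutrophils. It is not an upper limit of the level. Trib3, a pseudokinase induced by CHOP, was highest in hepatocyte or tumour epithelial cells, with 29.2 and 5.35 CPM. Atf4 itself ranged from 72.6 CPM in erythroid cells to 169 in B cells in the control library, and from 59.1 in erythroid cells to 168 in NK cells or ILC1 in the inhibitor library. The B cell level was 1.07-fold above that of control neutrophils, the next class, and the intervals overlapped. Erythroid marker genes held 47.4% of control and 38.6% of inhibitor erythroid UMIs, which lowers the CPM of other genes there. Relative to UMIs outside immunoglobulin genes, plasma cell Atf4 stood at 275 in control and 255 in inhibitor cells. The order of Atf4 thus depends on the scale.

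The design asks how these genes differ between the control and inhibitor libraries. With 1 library per group there is no test and no replicate check, and every difference below is between these libraries only. Comparisons were made in the 8 classes that held 100 or more cells in both libraries. A member was measured in a class when it had at least 20 UMIs there, and it was counted as higher or lower when the libraries differed by at least 1.5-fold. Of 256 pairs of member and class 227 were measured, 20 were higher in the inhibitor library and 30 lower. Over all measured genes, 4.1% to 20.4% were higher by class and 9.93% to 33.7% lower. Hepatocyte or tumour epithelial cells gave 17 of the lower pairs, and the other 7 classes gave 19 higher and 13 lower pairs of 195. Members' shares of all UMIs were 0.479% and 0.585% in control and inhibitor Kupffer cells, 0.345% and 0.443% in conventional dendritic cells, 0.371% and 0.413% in monocytes or macrophages, 0.388% and 0.214% in hepatocyte or tumour epithelial cells, and 0.207% and 0.211% in T cells.

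**Figure D2:**
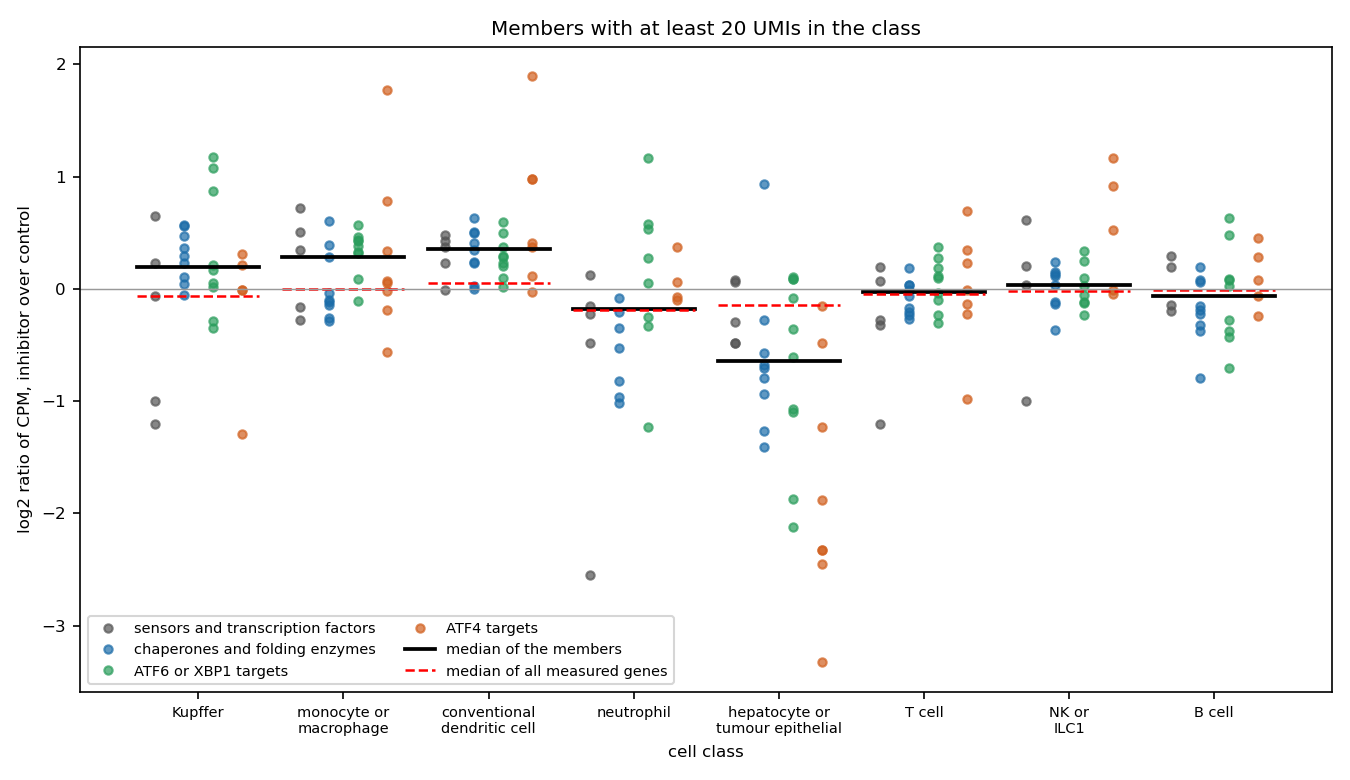
Log2 ratio of CPM, inhibitor over control, for each measured member by class, coloured by role, with the members' median (black line) and the median of all measured genes (red dashed line). The members' median lies above that of all genes in conventional dendritic, Kupffer and monocyte or macrophage cells and below it in hepatocyte or tumour epithelial cells.

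Conventional dendritic cells, which take up antigen and present it to T cells, had the members' highest median. Their 353 control and 325 inhibitor cells gave 30 measured members. Of these 27 had a higher level in the inhibitor library, 17 of them with an interval of the ratio above 1. Such counts above or below an equal level within a class, here and below, were not made over all genes. The part of abundance in them was not tested. The median log2 ratio of the members was 0.36, against 0.05 over all measured genes. Past 1.5-fold, 5 members were higher, where 9.01% of all genes were, and none was lower, where 10.4% were. The medians by role were 0.37 for sensors and factors, 0.34 for chaperones, 0.28 for ATF6 or XBP1 targets and 0.41 for ATF4 targets. The class was 1 cluster that held markers of both type 1 and type 2 conventional dendritic cells. Type 1 markers held 0.135% of control and 0.127% of inhibitor UMIs, and type 2 markers 0.133% and 0.0979%. The part of this mix in the ratios was not tested.

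Of the 7 measured ATF4 targets in conventional dendritic cells, 3 were past 1.5-fold. Ddit3 stood at 17.6 CPM in control and 34.8 in inhibitor cells, a log2 ratio of 0.98 (interval 0.53 to 1.44). Psat1, the second enzyme of serine synthesis, stood at 12.8 and 25.3 CPM, a log2 ratio of 0.98 (0.45 to 1.52). Asns rested on 6 and 20 UMIs, 1.60 and 5.94 CPM, a log2 ratio of 1.89 (0.52 to 3.50). Atf3 was higher by less than 1.5-fold, at 379 and 493 CPM, a log2 ratio of 0.38 (0.27 to 0.48). Phgdh, of serine synthesis, stood at 16.8 and 22.3 CPM, with an interval of the log2 ratio from -0.10 to 0.91 that included an equal level. Ppp1r15a, at 105 and 103 CPM, and Sesn2, at 10.4 and 11.3, differed by less than counting error. Dnajb11, a cochaperone of BiP, was the only chaperone past 1.5-fold, at 78.9 and 122 CPM, and Creld2, an ER-resident secreted protein, the only other ATF6 or XBP1 target, at 32.5 and 49.0 CPM. The larger counts behind Hspa5 and Calr gave narrow intervals below that threshold. Hspa5 stood at 398 and 561 CPM, a log2 ratio of 0.49 (0.40 to 0.59), and Calr at 496 and 706 CPM, 0.51 (0.42 to 0.60). Canx, at 119 and 118 CPM, and Pdia4, a disulfide isomerase at 37.1 and 37.7, differed by less than counting error. Genes of secreted hepatocyte proteins, a sign of free RNA, held 0.112% of control and 0.0243% of inhibitor UMIs here. Of these 21 genes, 21 and 19 had UMIs, with Mup3 and Serpina1d at 0 in the inhibitor library. Without Hp the shares were 0.106% and 0.0143%. Without the cells in which the 21 genes held over 0.5% the members' median was 0.32.

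In Kupffer cells, 129 control and 192 inhibitor cells, the members' median log2 ratio was 0.19 against -0.07 over all genes. Of 28 measured members 4 were at least 1.5-fold higher, beside 11.9% of all genes, and 3 at least 1.5-fold lower, beside 19.5%. By role, 3 of 9 measured ATF6 or XBP1 targets were higher and 0 lower. Of 5 sensors and factors 1 was higher and 2 lower, with a median of -0.07, equal to that of all genes at 2 decimals. Herpud1, which helps to hand misfolded proteins to the degradation machinery, stood at 125 CPM in control and 263 in inhibitor cells, a log2 ratio of 1.08 (0.81 to 1.35). Creld2 stood at 21.8 and 49.3 CPM, 1.18 (0.55 to 1.86). Manf, a secreted ER protein with protective effects on stressed cells, stood at 192 and 352 CPM, 0.87 (0.66 to 1.09). These 3 targets, together with Atf4 at 101 and 159 CPM, were the members past 1.5-fold upward. Chaperones were higher by less, with 8 of 9 above an equal level, a median of 0.30 and none past 1.5-fold. Hspa5 stood at 588 and 867 CPM, a log2 ratio of 0.56 (0.43 to 0.68), and Calr at 688 and 951 CPM, 0.47 (0.35 to 0.58).

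The sensors Ern1 and Eif2ak3 and the ATF4 target Sesn2 were lower in inhibitor Kupffer cells, each from few UMIs (20 and 23 for Ern1, 17 and 17 for Eif2ak3, 17 and 16 for Sesn2). Ern1 stood at 17.5 and 8.72 CPM, with an interval of the log2 ratio from -1.93 to -0.06. Eif2ak3 stood at 14.8 and 6.45 CPM, a log2 ratio of -1.20 (-2.26 to -0.14). Sesn2 stood at 14.8 and 6.07 CPM, a log2 ratio of -1.29 (-2.37 to -0.22). Median UMIs per Kupffer cell were 8272 in control and 14203 in inhibitor cells. Hepatocyte secreted protein genes, 21 of them, held 0.239% of control Kupffer UMIs (20 of 21 with UMIs, Mup3 at 0) and 0.0716% of inhibitor UMIs (19 of 21, Mup3 and Serpina1d at 0). Without the cells in which they held over 0.5% of UMIs, the members' median was 0.09, with Herpud1 at 1.06, Creld2 at 1.11 and Manf at 0.83.

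Monocytes or macrophages, 1228 control and 4147 inhibitor cells, had a members' median of 0.29 against -0.00 over all genes. Of 31 measured members 4 were at least 1.5-fold higher, beside 13.2% of all genes, and none lower, beside 21.2%. Xbp1 stood at 137 CPM in control and 226 in inhibitor cells, a log2 ratio of 0.72 (0.64 to 0.80). Hspa5 stood at 396 and 601 CPM, a log2 ratio of 0.60 (0.55 to 0.65). Psat1 stood at 4.83 and 16.5 CPM, a log2 ratio of 1.77 (1.35 to 2.23), and Sesn2 at 8.16 and 14.0 CPM, 0.78 (0.44 to 1.14). The chaperones other than Hspa5 had log2 ratios from -0.29 (Pdia4) to 0.39 (Dnajb11), with a median of -0.10 over all 9, whereas ATF6 or XBP1 targets had a median of 0.38. After thinning to 1000 UMIs, which left out 39 control and 26 inhibitor cells, Hspa5 had a UMI in 27.9% of control and 40.1% of inhibitor cells, at unthinned shares of 78.1% and 88.6% and medians of 7986.5 and 8085 UMIs.

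**Figure D3:**
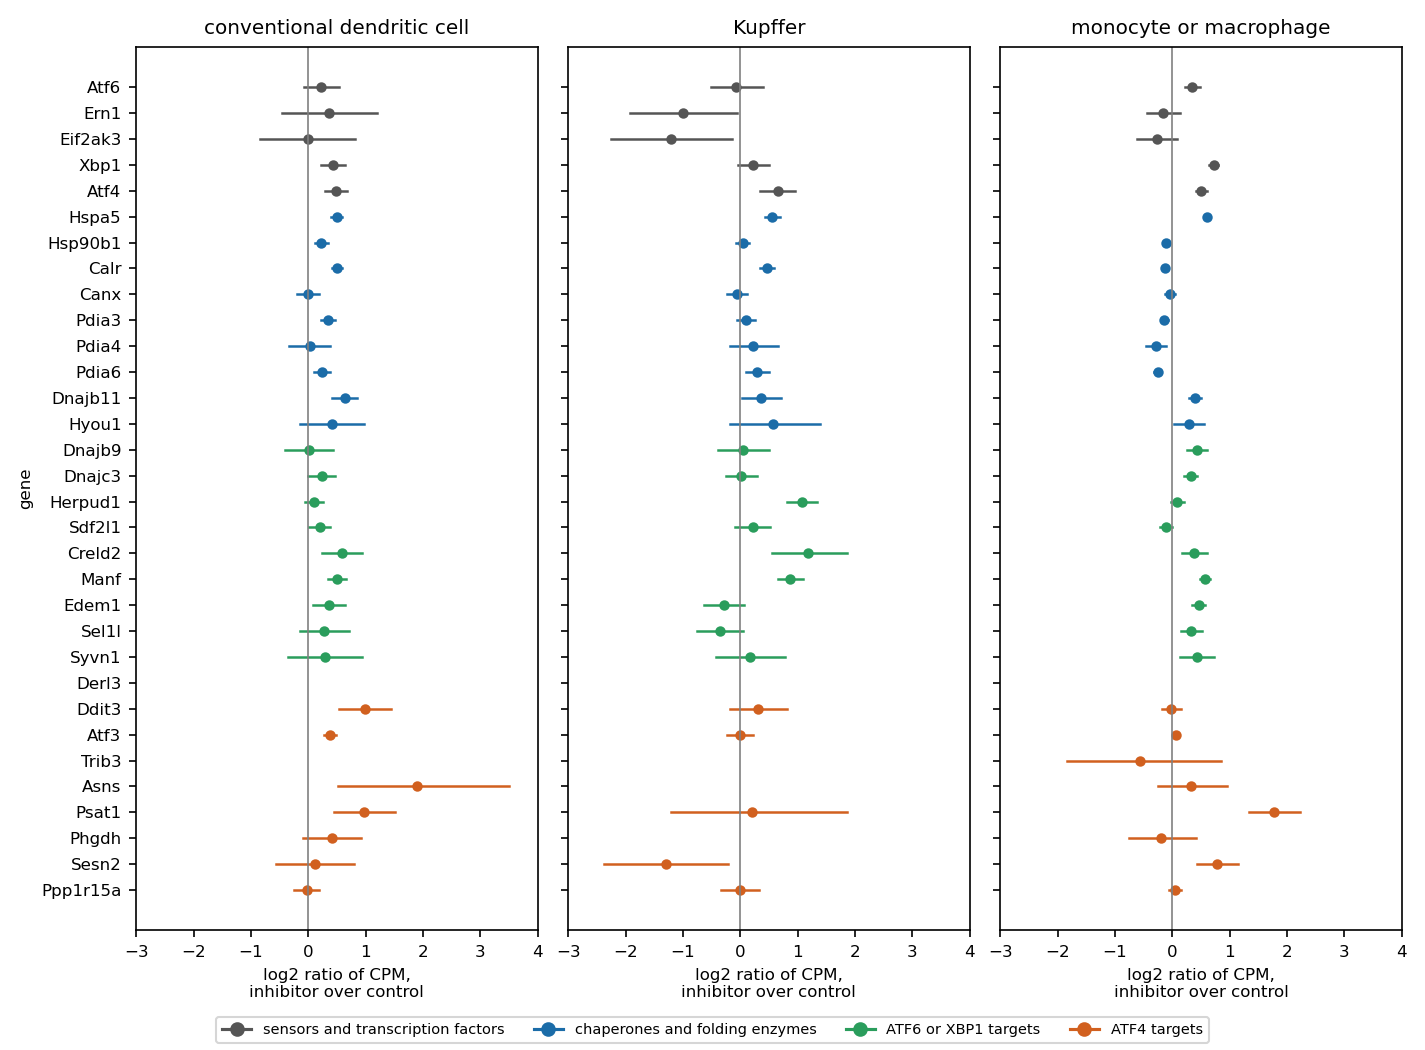
Log2 ratio of CPM, inhibitor over control, with its exact 95% counting interval, for each measured member in conventional dendritic, Kupffer and monocyte or macrophage cells. Herpud1, Creld2 and Manf lie farthest right among ATF6 or XBP1 targets in Kupffer cells, at log2 ratios of 1.08, 1.18 and 0.87.

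Different clusters held most of this class in each library, so its members were also compared within clusters. Cluster 7, led by Gpnmb and Ms4a7 of tissue macrophages, held 697 control and 77 inhibitor cells, and cluster 10, led by Vcan and Chil3 of classical monocytes, held 49 and 2628. Clusters 9 (196 and 740 cells), 12 (89 and 252) and 22 (87 and 401) were led by Ace and Adgre4, by Fabp4 and Eno3, and by Cpa3 and F13a1. In each of clusters 7, 9, 12 and 22, the ones with at least 50 cells per library, the members' median was above that of all genes, at 0.24, 0.42, 0.36 and 0.31 against 0.07, -0.02, 0.04 and 0.03.

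Of 27 members measured in all 4 of those clusters, 14 had a higher level in the inhibitor library in each cluster, beside 17.2% of 6717 genes, and 1 a lower level in each, Ern1, beside 10.9%. This count was chosen after the values were seen. The 14 comprised 7 of 9 chaperones, namely Hspa5, Hsp90b1, Calr, Pdia3, Pdia6, Dnajb11 and Hyou1. They also comprised 5 of 9 ATF6 or XBP1 targets (Dnajc3, Herpud1, Sdf2l1, Creld2 and Manf), Xbp1, and of 4 ATF4 targets Ddit3. Members were more abundant than the other genes, at a median of 1803 against 674 UMIs over the clusters, and the part of abundance in this count was not tested. With clusters 10 and 19 added, which have at least 40 cells per library, 6 of 22 members (Creld2, Ddit3, Dnajb11, Hsp90b1, Manf and Pdia3) were higher in each of the 6, against 12.5% of 5381 genes.

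Hspa5 had the largest folds among the chaperones in these clusters. Its level was 412 CPM in control and 751 in inhibitor cells of cluster 7, 327 and 706 in cluster 9, 201 and 682 in cluster 12, and 242 and 560 in cluster 22. The exact intervals of the libraries did not overlap in any of these 4 clusters, and the fold ran from 1.82 to 3.40. Cluster 10 gave 277 and 570 CPM. Cluster 19, led by the interferon-induced gene Cxcl9, gave 602 and 541, the one cluster with the lower Hspa5 level in the inhibitor library. Manf was 1.65- to 2.44-fold higher over the 4 clusters and Calr 1.27- to 1.92-fold, although Calr over the whole class stood at 528 and 485 CPM. The control class was mostly cluster 7, where the control Calr level, 624 CPM, was higher than in clusters 9 (422), 12 (253) and 22 (339). Xbp1 was 1.33- to 1.70-fold higher over the 4 clusters but level in cluster 10, at 222 and 218 CPM. Its control level in cluster 7 was 119 CPM. Creld2 was 2.03- to 6.80-fold higher, the largest value resting on 2 control UMIs. Psat1 was 1.63- to 2.61-fold higher in the 3 of these clusters where it was measured. In cluster 12 it had 3 and 8 UMIs, 5.80 and 5.01 CPM. Atf4 ranged from 0.964- to 1.25-fold, Atf3 from 0.402- to 1.34-fold and Sesn2 from 0.424- to 1.88-fold, so none of them kept 1 direction. Hepatocyte secreted protein genes other than Hp, which monocytes express, held 0.126% of control and 0.0314% of inhibitor UMIs in cluster 7, and their part in these ratios was not tested.

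**Figure D4:**
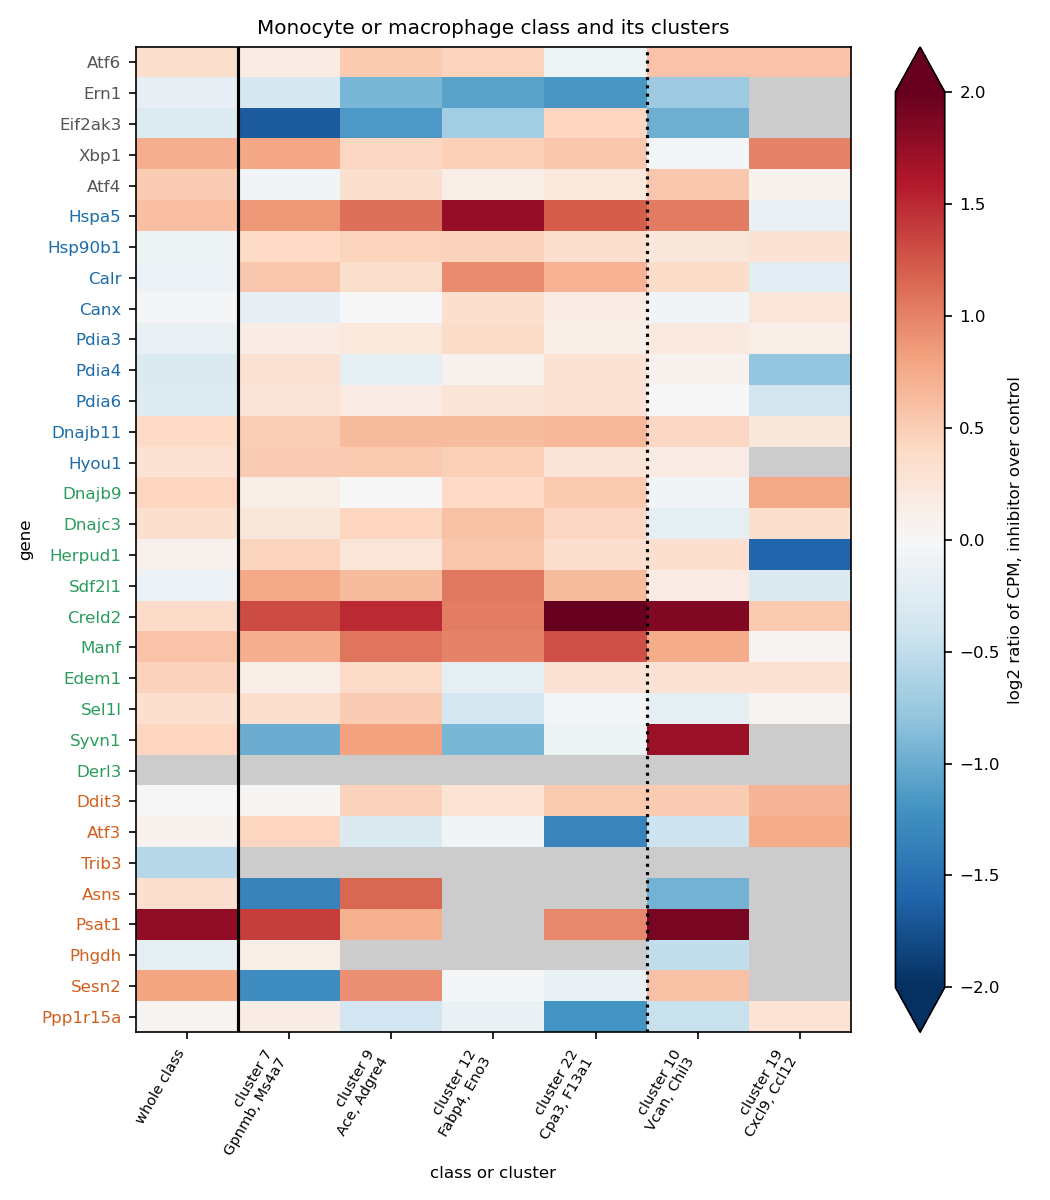
Log2 ratio of CPM, inhibitor over control, for each member (rows) over the whole monocyte or macrophage class and in its clusters (columns; clusters 10 and 19, right of the dotted line, have fewer than 50 cells in a library), with grey for members under 20 UMIs. Hspa5, Creld2 and Manf are higher in all 4 clusters left of the line, and Ern1 is lower in all 4.

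In hepatocyte or tumour epithelial cells 26 of 32 measured members had a lower level in the inhibitor library. Of these members 17 were at least 1.5-fold lower, beside 33.7% of all genes, and 1 of the 32 was higher, beside 20.4%. The members' median log2 ratio was -0.64 against -0.14 over all genes. Different cells made up the class in each library: 244 of 246 control cells were in cluster 3, led by Clu, Spink1 and Krt18, and 135 of 136 inhibitor cells were in cluster 24, led by Rgn and Fabp1. Tumour epithelial markers held 1.30% of control and 0.140% of inhibitor UMIs of the class, and Spink1-rich tumour epithelium and Rgn-rich hepatocytes cannot be told apart from the treatment here.

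ATF4 targets stood furthest apart, with 6 of 8 lower and a median of -2.10. Ddit3 stood at 134 CPM in control and 26.7 in inhibitor cells, a log2 ratio of -2.33 (-2.88 to -1.82). Asns stood at 23.0 and 2.29 CPM, from 48 and 3 UMIs, and Phgdh at 38.3 and 7.64 CPM. Trib3, the CHOP-induced pseudokinase, rested on 61 and 7 UMIs. Atf4 itself was level, at 122 and 127 CPM, as was Xbp1 at 165 and 174. Among chaperones 6 of 9 were lower, with a median of -0.70, and Hspa5 stood at 638 and 241 CPM, -1.41 (-1.59 to -1.23). Pdia3, a disulfide isomerase for glycoproteins, stood at 254 and 105 CPM. Of 10 ATF6 or XBP1 targets 5 were lower, among them Herpud1 at 286 and 77.9 CPM and Creld2 at 63.3 and 14.5. Hyou1, an ER chaperone related to Hsp70 proteins, was the member above 1.5-fold upward, at 7.19 and 13.8 CPM with an interval that included an equal level. The 15 immediate early genes, which are induced by handling of tissue, were all at least 1.5-fold lower in this class, with a median of -1.77, and the median mitochondrial share per cell was 7.70% in control and 0.973% in inhibitor cells. Their part in the result was not tested. Without a mitochondrial limit 748 control and 150 inhibitor cells entered the class, and the members' median was 0.49, again below that of all genes.

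In neutrophils, 802 control and 547 inhibitor cells, the members' median was -0.18, equal to that of all genes at 2 decimals. Of 24 measured members 5 were at least 1.5-fold lower, beside 25.6% of all genes, and 1 higher, beside 5.55%. Chaperones had 3 of 7 lower and a median of -0.52. Canx stood at 80.6 and 39.9 CPM, Pdia6 at 46.3 and 23.7, and Dnajb11 at 34.3 and 19.4. Dnajc3, which restrains PERK, was lower too, at 35.5 and 15.1 CPM, as was Ern1 on 21 and 2 UMIs. Syvn1, a ubiquitin ligase of ER protein removal, was higher, at 9.62 and 21.6 CPM, a log2 ratio of 1.16 (0.14 to 2.21), from 16 and 20 UMIs. Among the abundant stress genes of this class, Ppp1r15a was higher by less than 1.5-fold, at 666 and 862 CPM, a log2 ratio of 0.37 (0.24 to 0.51). Atf3, at a log2 ratio of -0.07 (-0.20 to 0.05), and Ddit3, at -0.10 (-0.41 to 0.22), differed by less than counting error. The 21 genes of secreted hepatocyte proteins held 0.497% of control neutrophil UMIs (21 with UMIs) and 0.198% of inhibitor UMIs (20, Serpina1d at 0). Without Hp, which is in this list, the shares were 0.343% and 0.0382%. Leaving out the cells in which the 21 genes, Hp included, held over 0.5% kept 520 control and 521 inhibitor cells. The members' median was then -0.074, and leaving doublets in gave 0.30.

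Lymphocytes showed few differences. In T cells the members' median was -0.02 against -0.05, with 1 of 30 measured members higher, beside 4.1% of all genes, and 2 lower, beside 10.5%. Atf3 stood at 5.19 and 8.40 CPM, Ern1 at 6.65 and 2.89, and Asns at 5.71 and 2.89. Hspa5, by contrast, stood at 239 and 245 CPM and Phgdh at 73.3 and 72.8. In the T cell clusters with at least 50 cells per library, numbers 1, 6, 16 and 20, the members' median ran from -0.02 to 0.24. Cluster 2, with 441 and 47 cells and added after the data were seen, gave -0.09. In B cells the median was -0.06 against -0.01, with 1 of 27 higher, beside 6.04%, and 2 lower, beside 9.93%. Dnajc3 was the higher gene, at 36.8 and 56.8 CPM. Edem1, which directs misfolded glycoproteins to removal, and Hyou1 were the lower genes, at 34.1 and 20.8 CPM and at 9.86 and 5.68 CPM, the latter with an interval that included an equal level. In NK cells or ILC1 the median was 0.04 against -0.02, with 3 of 25 higher, beside 7.32%, and 1 lower, beside 10.5%. Atf3 stood at 11.5 and 25.8 CPM there, a log2 ratio of 1.16 (0.12 to 2.31). Xbp1, Psat1 and Ern1 passed 1.5-fold in those cells with intervals that included an equal level.

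Ern1, the mRNA of the sensor IRE1, was lower past 1.5-fold in 4 of the 7 classes where it was measured, and higher in none. These were Kupffer cells, NK cells or ILC1, T cells and neutrophils, where 19.5%, 10.5%, 10.5% and 25.6% of all genes were lower. In NK cells or ILC1 the interval included an equal level, and in neutrophils Ern1 rested on few UMIs. In T cells, cluster 15 had 23.7 CPM in its 245 control cells, from 25 UMIs, and held 26 inhibitor cells. Ern1 stood at 2.86 and 2.36 CPM in cluster 1 and 8.99 and 5.52 in cluster 6. In clusters 16 and 20 it stood at 1.22 and 2.32 and at 4.20 and 2.29 CPM. All rested on few UMIs, and the part of the cluster mix was not tested. Psat1 was higher past 1.5-fold in 3 of 7 classes and lower in none. These were monocytes or macrophages, conventional dendritic cells and NK cells or ILC1, where 13.2%, 9.01% and 7.32% of all genes were higher. The Psat1 interval in NK cells or ILC1 included an equal level. Sesn2 was higher in monocytes or macrophages as a whole class, though not in each of their clusters, and lower in Kupffer cells.

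Related genes outside the 32 were read from longer lists. Their counts past 1.5-fold stand beside the shares of all genes that were higher and lower: 13.2% and 21.2% in monocytes or macrophages, 9.01% and 10.4% in conventional dendritic cells, and 11.9% and 19.5% in Kupffer cells. The shares were 5.55% and 25.6% in neutrophils, 20.4% and 33.7% in hepatocyte or tumour epithelial cells, and 4.1% and 10.5% in T cells. Related ATF6 or XBP1 genes, which cover translocation into the ER, signal peptide removal and transport, had 36 measured members in monocytes or macrophages, 6 higher and 1 lower, with a median of 0.40. Sec61b, a subunit of the translocation channel, stood at 500 and 789 CPM and Sec11c, of the signal peptidase, at 158 and 253. In conventional dendritic cells none of 35 passed 1.5-fold in either direction, but 32 had a higher level in the inhibitor library. Their median was 0.30, against 0.05 over all genes. Kupffer cells had 3 of 35 higher and 2 lower, with a median of 0.16. In neutrophils 16 of 32 were lower and 2 higher, and in hepatocyte or tumour epithelial cells 22 of 35 were lower and 1 higher. T cells, B cells and NK cells or ILC1 had medians of 0.01, -0.05 and 0.00.

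Related ATF4 genes, mainly amino acid transporters, enzymes and tRNA synthetases, were higher past 1.5-fold for 9 of 28 in conventional dendritic cells and lower for 2, with a median of 0.43. Cebpb, a transcription factor of myeloid cells that is not regulated by ATF4 alone, stood at 78.1 and 267 CPM there. Eif4ebp1, a brake on translation, stood at 63.2 and 98.9 CPM. Kupffer cells had 7 of 30 higher and 7 lower, including Ddit4 at 89.9 and 10.2 CPM, and monocytes or macrophages 3 higher and 5 lower of 30. Gdf15, a secreted stress signal, differed in direction between these classes, at 304 and 516 CPM in Kupffer cells and 88.8 and 6.20 in monocytes or macrophages. In hepatocyte or tumour epithelial cells 7 of 30 were higher and 7 lower, with a median of 0.12, unlike the median of -2.10 of the 8 ATF4 targets among the members. That difference between the lists was not tested. T cells had 3 of 28 higher and 1 lower.

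The cytosolic heat shock genes, which answer to misfolding outside the ER, were given beside the members. Their median log2 ratio was 0.50 in conventional dendritic cells, with 4 of 11 measured genes higher and none lower, 0.20 in monocytes or macrophages, with 2 of 12 higher and 2 lower, and 0.04 in Kupffer cells, with 2 of 11 higher and 1 lower. In hepatocyte or tumour epithelial cells it was 0.26, with 4 of 12 higher and 1 lower. T cells had a median of 0.33 with none of 12 past 1.5-fold, and neutrophils -0.46 with 4 of 9 lower and none higher. B cells and NK cells or ILC1 had medians of -0.07 and 0.12. The shares of all genes past 1.5-fold in each class, given above, apply to these counts too. The part of heat shock genes in the members' differences was not tested. Regulators of the integrated stress response, 18 genes that include the other kinases and the guanine nucleotide exchange factor, had medians of 0.09, 0.08 and -0.21 in conventional dendritic cells, monocytes or macrophages and Kupffer cells.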

How the data were processed

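UMI counts per gene and cell barcode were used as deposited by the authors, as whole numbers without normalization. The matrices came from Cell Ranger 5.0.1, per the file headers, and the submitters' processing notes name the build mm9, R 3.0 and Seurat 3. Of 31053 feature identifiers 30934 (99.6%) occur in GENCODE M21 on GRCm38.

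Barcodes with at least 300 genes, at least 500 UMIs and at most 25% mitochondrial UMIs were kept, and 374 and 717 barcodes with the highest scores against simulated doublets were removed. Both libraries were clustered together (scanpy 1.11.5, 2000 variable genes, 30 components, 20 neighbours, resolution 1.0). Clusters were named from fixed markers of 20 classes, needing 3 markers at least 2-fold up, by a scoring set after the first clusters had been seen. Sums of UMIs over each class of a library were given as CPM with exact Poisson 95% intervals; ratios had exact conditional binomial intervals (scipy 1.17.1), and counts of 0 entered as 3 UMIs per class. The ratio calculation was checked on simulated data. Named genes are all 32 members plus, of each related list, genes from those with the most UMIs past 1.5-fold. Members and lists were chosen with earlier results of these data known.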

Additional observations from a re-analysis of the deposited data

Results flagged for a closer look

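Each of the following members was at least 1.5-fold higher in the inhibitor library in 1 class and at least 1.5-fold lower in another, which is what brought it here; in each case the difference between the classes was not tested, and each class has 1 library per group. The size given is the log2 ratio of the first class minus that of the second. Between other classes and hepatocyte or tumour epithelial cells, whose libraries hold different clusters, it was 5.22 for Asns (conventional dendritic cells), 3.31 for Ddit3 (conventional dendritic cells), 3.30 for Creld2 (Kupffer cells), 2.95 for Herpud1 (Kupffer cells), 2.40 for Atf3 (NK cells or ILC1), 2.01 for Hspa5 (monocytes or macrophages) and 1.94 for Manf (Kupffer cells). Between other classes and neutrophils it was 1.86 for Dnajc3 (B cells) and 1.45 for Dnajb11 (conventional dendritic cells). Sesn2 differed by 2.07 between monocytes or macrophages (0.78) and Kupffer cells (-1.29), the latter on 17 and 16 UMIs. Within the monocyte or macrophage clusters with at least 50 cells per library, Sesn2 ran from 0.424- to 1.88-fold.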

How the results depend on the processing

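Each of the 45 ratios past 1.5-fold whose interval excluded an equal level was recomputed under 13 or 14 of 16 other settings, and 30 kept their direction. The members' median stayed above 0 in conventional dendritic cells (0.27 to 0.36), monocytes or macrophages (0.13 to 0.32), Kupffer cells (0.04 to 0.24) and NK cells or ILC1 (0.01 to 0.11), and took both signs in B cells, T cells (-0.21 to 0.02), neutrophils (-0.23 to 0.30) and hepatocyte or tumour epithelial cells. The settings named here are those that moved a count past 1.5 times, moved a median or turned a ratio, and the cause was not tested except where stated. Counts are of members higher, then lower. The shares of all genes past 1.5-fold were not computed under these settings.

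Without a mitochondrial limit the hepatocyte or tumour epithelial class had a median of 0.49 with 14 and 2 members, and 9 ratios turned: Calr 0.47, Canx 0.35, Pdia4 1.07, Dnajb9 0.95, Herpud1 0.27, Sel1l 0.88, Atf3 1.45, Phgdh 0.45 and Ppp1r15a 0.30. B cells then had a median of 0.093 with 2 higher, T cells 0 and 4, and neutrophils 2 higher. With a limit of 10% the hepatocyte or tumour epithelial median was -2.28 with 0 and 26, B cells had 2 and 0, conventional dendritic cells 3 higher and neutrophils 3 higher. With at least 600 genes per cell the hepatocyte or tumour epithelial median was -0.18 with 5 and 9, Pdia4 was at 0.72, Pdia6 at 0.036 and Dnajb9 at 0.062, and B cells had 0 higher.

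Without doublet removal B cells had a median of 0.24 with 5 and 1 (Edem1 0.24), neutrophils 0.30 with 6 and 2 (Pdia6 0.30, Dnajb11 0.38, Dnajc3 0.14), T cells 0 higher, and hepatocyte or tumour epithelial cells 2 higher (Pdia4 0.14). With doubled doublet removal plasma cells fell into the B cell cluster, whose median was -0.34 with 0 and 12 (Dnajc3 -0.54), and the hepatocyte or tumour epithelial median was -1.61 with 0 higher.

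With at least 50 UMIs, which leaves fewer genes, B cells had 1 lower, Kupffer cells 0 lower, NK cells or ILC1 1 and 0, and hepatocyte or tumour epithelial cells and neutrophils 0 higher. At a fold of 2, B cells had 0 and 0, Kupffer cells 2 higher, NK cells or ILC1 1 and 0, T cells 0 and 1, conventional dendritic cells and monocytes or macrophages 1 higher each, hepatocyte or tumour epithelial cells 0 higher and neutrophils 3 lower. With every cell weighing the same, T cells had 0 higher, hepatocyte or tumour epithelial cells and neutrophils 3 higher each, and monocytes or macrophages 1 lower. With free RNA subtracted, T cells had 0 and neutrophils 2 higher. Monocytes or macrophages had 1 lower at resolution 2 and, in a comparison added after the data were seen, without the interferon-led clusters; NK cells or ILC1 had 2 lower at resolution 2.

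No paired analysis was possible because each group has 1 library. Only 227 of 256 pairs of member and class reached 20 UMIs, and counting intervals hold no spread between animals.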
